A study of Rattus norvegicus with 8 samples.

Results

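Non-cycling oligodendrocyte precursors of the rat spinal cord were taken as the cells with at least 2 UMIs of Ptprz1, at least 2 of Olig1 and Olig2 together, at most 1 of Mag and Mog together, at most 2 of Tyrobp and at most 1 of Mki67 and Top2a together. A UMI is a molecular barcode that counts 1 captured RNA molecule. Of 68658 deposited cells, 57296 had at least 1000 UMIs and at most 10% of them on mitochondrial genes, and 1535 of these met the limits. The limits used measured values, so the levels of these 8 genes are given as a description and were not tested. The name rests on Ptprz1, Olig1, C1ql1, Il33 and Vgf, which were chosen with these data in view.

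Oligodendrocyte precursors are the dividing glial cells that give rise to myelin-forming oligodendrocytes throughout life. They carry the platelet-derived growth factor receptor Pdgfra and the proteoglycan Cspg4 (NG2), receive glutamate synapses from axons through AMPA-type receptors, and respond to injury by dividing, migrating and supplying new oligodendrocytes. Most of them are between divisions at any moment, and the cells studied here are those without a clear signal of Mki67 and Top2a, genes used by dividing cells.

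Female Wistar rats aged 8 weeks had the cord exposed at vertebra T9. In the injured groups a 10 g weight fell on the cord from 12.5 mm (mild), 25 mm (moderate) or 50 mm (severe), and the sham group had the laminectomy only, without contusion. A 10 mm piece of cord was dissociated 7 days later for droplet-based single-cell RNA sequencing. Each of the 4 groups had 2 libraries, each library from a cord of its own, so p-values rest on the spread between 2 rats per group. The selected cells numbered 60 and 59 in the sham libraries, 133 and 439 after mild, 283 and 354 after moderate and 41 and 166 after severe injury. Their summed UMIs, the depth behind every level below, ranged from 408700 in sham library 1 to 4295776 in moderate library 2.

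The selected cells carried the markers that the rule did not use. With every cell thinned to 2000 UMIs, Il33, a nuclear cytokine of the interleukin 1 family, had a UMI in 88.9% of them and C1ql1, a secreted C1q-like protein, in 64.4%. Vgf, the precursor of several secreted neuropeptides, was seen in 48.9%. The shares in Tyrobp-rich cells (at least 5 UMIs of Tyrobp, a gene of microglia and macrophages), which should lack these genes, were 6.70%, 0.369% and 1.02%. In cycling precursors (the same limits, with at least 2 UMIs of Mki67 and Top2a together) they were 91.5%, 40.2% and 67.9%. The median cell held 9314 UMIs in the selected cells before thinning, and the Tyrobp-rich cells had medians of 2987 to 16506 by library. Sox10, the lineage's master regulator, was seen in 46.9% of the thinned selected cells and Bcas1, a gene of cells on the way to myelination, in 59.4%, against 0.706% and 0.974% of Tyrobp-rich cells, 35.5% and 44.3% of cycling precursors and 36.1% and 51.3% of mature oligodendrocytes (at least 4 UMIs of Mag and Mog, at most 1 of Ptprz1 and at most 2 of Tyrobp). Pdgfra reached 23.8% and Cspg4 15.2%, against 0.346% and 0.956%. By library Pdgfra ran from 4.85% in severe library 2 to 58.2% in sham library 1, and Cspg4 from 4.85% to 30.9% in the same 2 libraries. Before thinning, 961 of 1535 cells (62.6%) held C1ql1, Il33 and Vgf together, and 0 of 1535 held none of them.

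Some usual precursor genes were scarce. Gpr17, Bcan and Pcdh15 were seen in 1.12%, 2.64% and 1.32% of thinned cells. In sham library 1 the shares were 5.45%, 10.9% and 7.27%, and in any other library at most 1.79%, 4.35% and 2.75%. Neu4 had no UMI in the selected cells, nor in the cycling, mature or Tyrobp-rich cells, so nothing is read from it. Of markers of other cells, Gfap, the intermediate filament of astrocytes, was seen in 36.5% of thinned selected cells against 1.20% of Tyrobp-rich cells, while Aqp4, the astrocyte water channel, was seen in 0.461%. Snap25, a neuronal synaptic protein, was seen in 1.58%, with 12.7% in sham library 1 and at most 1.72% in any other library. Mbp, a myelin protein, had UMIs in 16.6% of selected cells and in 12.9% of Tyrobp-rich cells. C1qb, a complement gene of microglia, was seen in 15.3% of selected cells and 55.3% of Tyrobp-rich cells. The name is used as it was given with the rule. Its 3 remaining markers were chosen on these data, so their presence together in 961 cells says nothing further about it.

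Several libraries stood apart. The selected cells of sham library 1 held S100a9, a neutrophil gene, at 1732 CPM (counts per 1000000 summed UMIs), against 0 in sham library 2 and at most 10.3 in the injured libraries. The 3 neutrophil markers together reached 2520 CPM there, and S100a8 and S100a9, lower in the test of all injured groups, did not pass and had the opposite sign without that library. Of 5 mature oligodendrocyte markers, Mobp, Mal and Opalin were highest in sham library 1, at 31.8, 17.1 and 9.79 CPM, against at most 15.5, 4.90 and 2.56 in the other libraries. The sum of the 5, led by Cldn11, was 467 CPM there and 249 to 511 elsewhere. The selected cells of sham library 1 were also the shallowest, with a median of 5310 UMIs, against 7450 in sham library 2 and 7563 to 11538 in the mild and moderate libraries. The severe libraries were the deepest, with medians of 15500 and 20328. Of the selected cells' UMIs, a median of 2.12% were mitochondrial in sham library 1 and 2.61% and 2.18% in the severe libraries, against 5.65% to 6.45% in the other 5. Pairs of libraries shared 5 to 40 cell barcodes, at most 0.452% of the smaller library.

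Near the limits, 163 cells held exactly 2 Ptprz1 UMIs and 173 cells that met every other limit held 1. For Tyrobp, 236 cells stood at 2 UMIs and 90 at 3, and for Mki67 and Top2a together 315 stood at 1 and 189 at 2. The selected cells' Ptprz1, a receptor phosphatase of glial precursors, was at 2887 and 2021 CPM in the sham libraries, 742 and 801 after mild, 713 and 803 after moderate and 869.8 and 608 after severe injury. Both sham libraries were above all 6 injured libraries. Olig1, a lineage transcription factor, was at 2738 and 1621 CPM in the sham libraries, 2197 and 1987 after mild, 1081 and 779.6 after moderate and 1678 and 1059 after severe injury, with overlapping groups.

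The share of non-cycling precursors among filtered cells ran from 0.650% to 5.43% over the libraries. It was 0.650% (95% Wilson interval 0.505 to 0.835) and 2.23% (1.73 to 2.87) in the sham libraries and 1.77% (1.5 to 2.10) and 5.19% (4.74 to 5.69) after mild injury. After moderate injury it was 2.61% (2.32 to 2.92) and 5.43% (4.91 to 6.01), and after severe injury 1.03% (0.758 to 1.39) and 2.05% (1.76 to 2.38). The intervals cover counting error only. The mean was 3.01% ± 1.85 (SD, n = 6) in injured and 1.44% ± 1.12 (SD, n = 2) in sham libraries, a difference that was not larger than the spread (two-sided exact permutation test, p = 0.357). The smallest p that 28 arrangements of the libraries allow is 0.0714.

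Among all precursors, the share that was cycling (at least 2 UMIs of Mki67 and Top2a together) was higher in every injured library than in either sham library. It was 13.0% and 22.4% in sham, 52.0% and 34.4% after mild, 47.9% and 51.2% after moderate and 49.4% and 45.4% after severe injury. The means were 46.7% ± 6.49 (SD, n = 6) and 17.7% ± 6.59 (SD, n = 2). The rule used Mki67 and Top2a, so the share is given as a description and no p-value is given for it. With all cells thinned to 2000 UMIs the shares fell to 13.7% ± 4.68 and 5.89% ± 2.55, and the groups overlapped. The draw mattered, since over 100 further draws the groups did not overlap in 43. Averaged over these draws the share was 2.86% and 9.37% in the sham libraries and 9.88% to 19.1% in the injured libraries. By median UMIs of the selected cells the sham libraries were the shallowest of the 8, though sham library 2 (7450) lay close to moderate library 1 (7563). The part of depth in the difference was not tested.

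**Figure D1:**
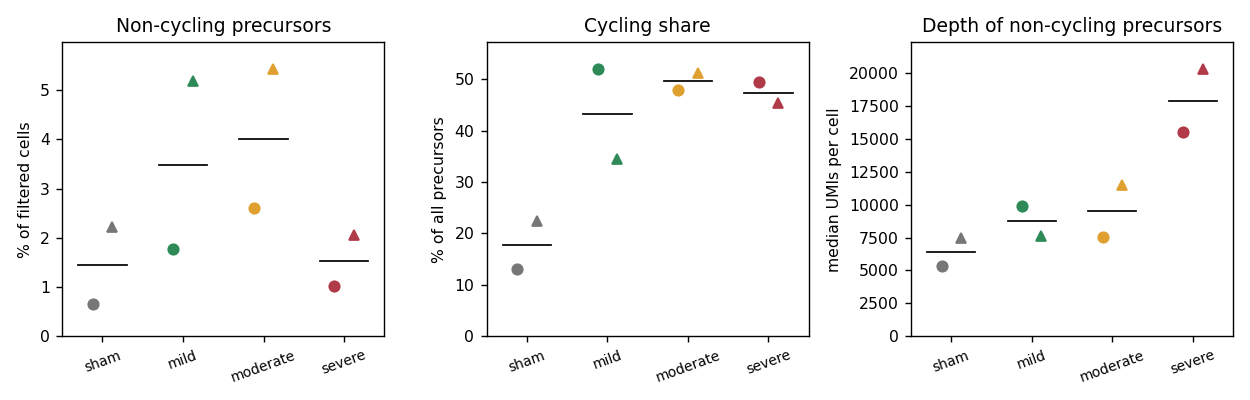
Share of non-cycling precursors among filtered cells (left), share of cycling cells among all precursors (middle) and median UMIs of the selected cells (right), each in 4 groups with 2 libraries each. Circles are library 1, triangles library 2 and black lines group means. The left panel's groups overlap, both sham libraries lie lowest in the middle panel, and the severe libraries are the deepest, at 15500 and 20328 UMIs.

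The first comparison asked what differed in non-cycling precursors after injury of any height. UMIs were summed per library, and the mean of the 3 injured groups was set against sham with edgeR's quasi-likelihood test over 9801 genes. At a Benjamini-Hochberg adjusted p under 0.05, 432 genes (4.41%) differed, 130 higher (1.33%) and 302 lower (3.08%) after injury. Without sham library 1, 47 genes passed, 35 of them among the 432, and without sham library 2, 1098 passed, 513 higher and 585 lower. The split was 246 higher and 359 lower with DESeq2, 103 and 338 with library sizes only and 556 and 556 with no filter on low counts, so the excess of falls depends on the setting. A call described for all injured groups did not pass without sham library 1 unless it is said to. The libraries of sham and injured cords did not overlap for 10.2% (higher after injury) and 11% (lower) of the genes tested. Per library, levels are plain CPM, while fold changes were fitted with TMM factors.

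Of 20 tested genes of a list of synaptic and channel genes, 9 fell (3.08% of all genes fell), 0 rose and 11 did not pass, with a median log2 fold change of -1.38, beside -0.05 over all genes tested. At an unadjusted p under 0.05, 0 of the 20 were higher, and DESeq2 called 0 higher as well. Gria4 (ENSRNOG00000006957), a subunit of AMPA-type glutamate receptors, was at 475 and 91.8 CPM in the sham libraries, 57.2 and 70 after mild, 30.5 and 31.2 after moderate and 27.7 and 16.8 after severe injury. Sham library 1 was far above sham library 2, and both were above every injured library (log2 fold change -2.95 ± 0.40 (SE), adjusted p = 0.00388). Gria2 (ENSRNOG00000054204), the subunit that sets the calcium permeability of these receptors, was at 472 and 169.9 CPM in the sham libraries, 66.8 and 120.1 after mild, 59.1 and 58.7 after moderate and 68.4 and 30.6 after severe injury. Its libraries did not overlap either (log2 fold change -2.26 ± 0.34 (SE), adjusted p = 0.00803). Without sham library 1 the values were log2 fold change -1.37, adjusted p = 0.0665 for Gria4 and log2 fold change -1.38, adjusted p = 0.105 for Gria2.

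The same list holds adhesion molecules. Nrcam (ENSRNOG00000004067), a cell adhesion molecule of axons and nodes of Ranvier, was at 411 and 179.7 CPM in the sham libraries, 74.1 and 111 after mild, 68.6 and 93.1 after moderate and 53.7 and 52.2 after severe injury. The groups did not overlap (log2 fold change -1.92 ± 0.27 (SE), adjusted p = 0.00468), and without sham library 1 the value was log2 fold change -1.23, adjusted p = 0.0662. Nlgn1, a postsynaptic adhesion molecule, fell by 1.90 on the log2 scale, Cacng4, an AMPA receptor auxiliary subunit, by 1.22 and the sodium channel gene Scn3a by 1.66. Snap25 and Grin3a fell too, each with sham library 1 at the top. Of 4 tested neuron markers in the same cells 1 fell, with a median of -0.48. The 5 listed neuron markers, led by Tubb3, summed to 161 and 234 CPM in the sham libraries and 172 to 374 after injury. The part of neuronal RNA in the list's values was not tested. By group, edgeR called 0 of the 20 genes after mild injury, where 0.367% of all genes fell. At an unadjusted p under 0.05, 13 of them were lower, where 21.2% of all genes passed in either direction. DESeq2 called 4 lower, where it called 176 of all 9801 genes lower. After moderate injury 4 fell and after severe injury 12, where 1.59% and 4.09% of all genes fell. Without sham library 1 edgeR called 0 of 23 tested genes for all injured groups together, with 7 lower at an unadjusted p under 0.05, while 1 fell after moderate and 3 after severe injury. It also called 0 of 24 after moderate injury without moderate library 2 and 0 of 24 after severe injury without severe library 2, with 9 and 11 lower at an unadjusted p under 0.05.

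A small set of falls held without either sham library. Gpm6a (ENSRNOG00000010731), a membrane glycoprotein of growing processes, was at 299 and 187 CPM in the sham libraries, 63.1 and 71.9 after mild, 56.8 and 45.9 after moderate and 63.5 and 31.8 after severe injury. Every sham value was above every injured value (log2 fold change -2.10 ± 0.26 (SE), adjusted p = 0.00388), also without sham library 1 (log2 fold change -1.76, adjusted p = 0.0171). Clu (ENSRNOG00000016460), the secreted chaperone clusterin, was at 553 and 244 CPM in the sham libraries, 109 and 106 after mild, 63.2 and 79.4 after moderate and 101 and 66.9 after severe injury. It was lower after all 3 injuries (log2 fold change -2.14 ± 0.26 (SE), adjusted p = 0.00388), also without sham library 1 (log2 fold change -1.46, adjusted p = 0.0171). Cav2 (ENSRNOG00000057713), a caveolin of membrane invaginations, was at 1064 and 615 CPM in the sham libraries, 218 and 222 after mild, 110.0 and 228 after moderate and 202 and 96.9 after severe injury, without overlap (log2 fold change -2.19 ± 0.29 (SE), adjusted p = 0.00388), and without sham library 1 it had log2 fold change -1.77, adjusted p = 0.0216.

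**Figure D2:**
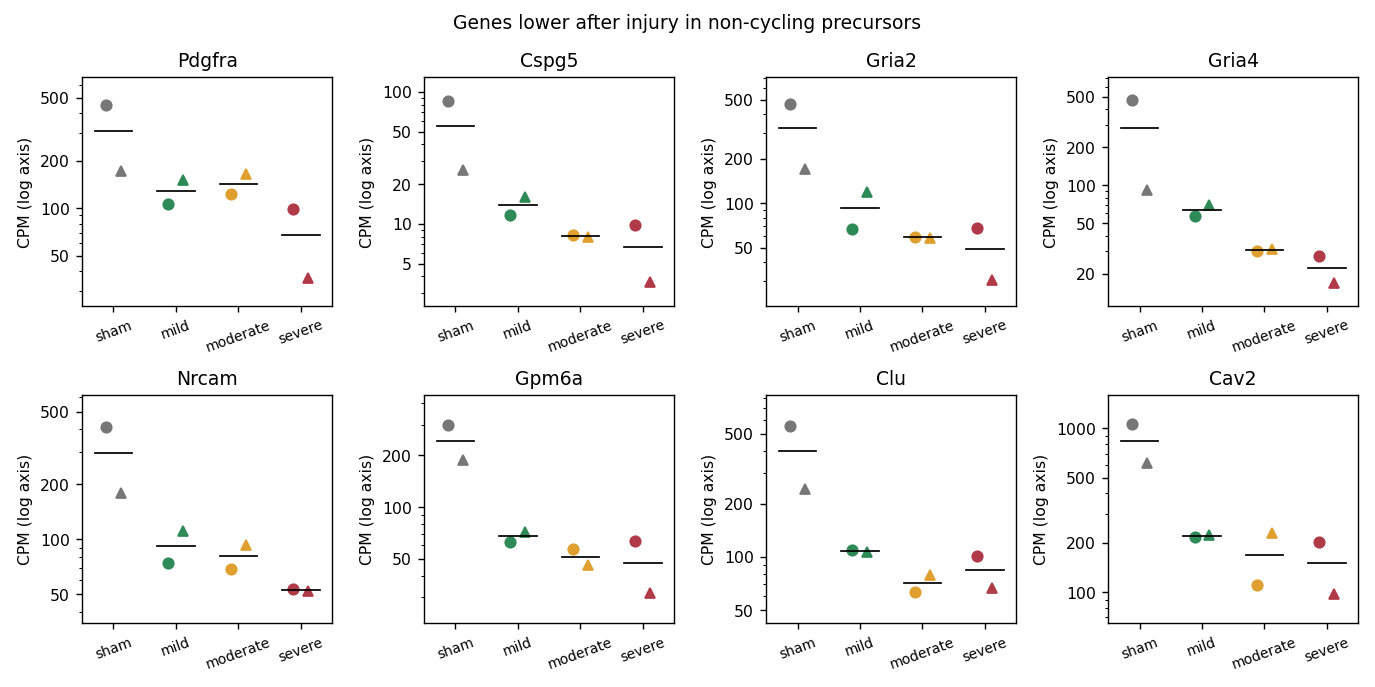
Levels of 8 genes in the selected cells by group, in CPM on a log axis, with circles for library 1, triangles for library 2 and black lines for group means. In each panel both sham libraries lie above the injured libraries, and sham library 1 is the highest of all 8.

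Other large falls were Luzp2 (log2 fold change -2.37 ± 0.35 (SE), adjusted p = 0.00582), Otos (log2 fold change -2.37 ± 0.37 (SE), adjusted p = 0.00803), Ampd3, an AMP deaminase (log2 fold change -1.91 ± 0.34 (SE), adjusted p = 0.0152), and Hmgcs1, an early enzyme of cholesterol synthesis (log2 fold change -2.01 ± 0.36 (SE), adjusted p = 0.0152). Of 11 named falls, 4 passed without sham library 1 (Sumo4, Gpm6a, Clu and Cav2), and 11 passed without sham library 2. Sumo4, a ubiquitin-like modifier that has close paralogs, led the list and is described with the severe libraries below.

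Of 28 tested genes of the precursor identity list, 12 fell (3.08% of all genes fell), 0 rose and 16 did not pass, with a median log2 fold change of -1.07 beside -0.05 over all genes tested. No member was higher at an unadjusted p under 0.05 by edgeR, and DESeq2 called 0 higher. Pdgfra (ENSRNOG00000002244), the receptor that drives precursor division, was at 448 and 172 CPM in the sham libraries, 106 and 151 after mild, 123 and 163 after moderate and 99.4 and 36.3 after severe injury. Sham library 2 lay just above moderate library 2, and severe library 2 was the lowest (log2 fold change -1.48 ± 0.35 (SE), adjusted p = 0.0394). Without sham library 1 it had log2 fold change -0.67, adjusted p = 0.427. Cspg5, a proteoglycan of the precursor surface, was at 85.6 and 25.4 CPM in the sham libraries, 11.7 and 16.1 after mild, 8.18 and 7.91 after moderate and 9.77 and 3.60 after severe injury, with no overlap (log2 fold change -2.62 ± 0.44 (SE), adjusted p = 0.0133), and without sham library 1 it had log2 fold change -1.55, adjusted p = 0.212. Sox8 and Sox6, transcription factors of the lineage, fell by 1.82 and 1.05 on the log2 scale. The other members that fell were C1ql2, Matn4, Tmem100, Rlbp1, Epn2, Scrg1, Cacng4 and Gpr37l1. Without sham library 1, 2 of 28 fell (Tmem100 and Scrg1), where 38 of all 10660 genes tested fell, with a median of -0.68. Without severe library 2, 1 fell, where 42 of 10180 did, with a median of -0.96. Of 5 tested astrocyte markers in the same cells, Slc1a3 and Aqp4 fell, with a median of -0.99, and Slc1a3 passed without sham library 1 too. Their sum, led by Gfap, was 1086 and 898 CPM in the sham libraries, 1029 and 1276 after mild, 571 and 673 after moderate and 660 and 494 after severe injury, and Gfap itself did not pass (log2 fold change 0.23, adjusted p = 0.644). The part of astrocyte RNA in the list's values was not tested.

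The naming markers did not move together. C1ql1 (ENSRNOG00000002963) was at 1417 and 1117 CPM in the sham libraries, 1241 and 1363 after mild, 462 and 539 after moderate and 577 and 542 after severe injury. The 4 moderate and severe libraries lay below every sham and mild library. C1ql1 fell after moderate (log2 fold change -1.37 ± 0.26 (SE), adjusted p = 0.0215) and severe injury (log2 fold change -0.90 ± 0.25 (SE), adjusted p = 0.0497), the latter not without sham library 1 (adjusted p = 0.168) or severe library 2 (adjusted p = 0.261), with a log2 fold change of 0.01 after mild injury (adjusted p = 0.997). Il33 (ENSRNOG00000016456) was at 3315 and 5819.9 CPM in the sham libraries, 6213 and 5295 after mild, 4526 and 5454 after moderate and 2614 and 5766 after severe injury. Sham and injured libraries overlapped, and the test gave log2 fold change 0.18 ± 0.33 (SE), adjusted p = 0.788. Vgf was at 1835 and 570.3 CPM in the sham libraries, 1303 and 749 after mild, 645 and 1117 after moderate and 630.3 and 777 after severe injury, again with overlap (log2 fold change -0.40 ± 0.37 (SE), adjusted p = 0.534). Cspg4 and Sox10 had log2 fold changes of -0.96 and -0.50 (adjusted p = 0.118 and 0.134) and did not pass.

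Between single cells the markers spread widely. C1ql1 had a median of 6 UMIs per cell (quartiles 2 and 13, highest 78), and 11.3% of the 1535 cells held none. By library its median was 7 in both sham libraries, 10 in both mild libraries, 2 and 4 after moderate and 6 and 7 after severe injury. Depth differed between these libraries, so the severe cells held as many UMIs at a lower CPM. Vgf had a median of 3 UMIs, and 27.5% of cells held none, from 9.76% in severe library 1 to 43.3% in sham library 1. Il33 had a median of 26 UMIs (quartiles 7 and 74) and a highest value of 933.

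Of the 130 genes that rose, those named by the size of the change and members of the lists are described. Spp1 (ENSRNOG00000043451), the secreted glycoprotein osteopontin, was at 44.0 and 25.4 CPM in the sham libraries, 289.8 and 294 after mild, 642 and 1044 after moderate and 94.5 and 236 after severe injury. All injured libraries were above both sham libraries and the moderate libraries were highest (log2 fold change 3.41 ± 0.43 (SE), adjusted p = 0.00388), also without sham library 1 (log2 fold change 3.83, adjusted p = 0.0103). The same libraries' Tyrobp-rich cells held Spp1 at 1329 and 3305 CPM in the sham libraries, 11892 and 10922 after mild, 15222 and 20546 after moderate and 19660 and 13900 after severe injury, and mature oligodendrocytes at 16.9 and 17.4 CPM in the sham libraries, 237 and 223 after mild, 513 and 679.6 after moderate and 35.8 and 53.3 after severe injury. Levels in the selected and the mature cells thus moved alike over the sham, mild and moderate libraries. The part of free Spp1 RNA from Tyrobp-rich cells in the rise was not tested.

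Tnc (ENSRNOG00000058645), the matrix protein tenascin-C, was at 9.79 and 62.5 CPM in the sham libraries, 183 and 177 after mild, 223 and 619 after moderate and 159.6 and 210.0 after severe injury. Every injured library was above both sham libraries (log2 fold change 2.73 ± 0.53 (SE), adjusted p = 0.0207), and without sham library 1 the value was log2 fold change 2.0, adjusted p = 0.0906. Tyrobp-rich and mature cells held at most 38.5 and 15.4 CPM of Tnc in any library. Flna (ENSRNOG00000054890), the actin cross-linker filamin A, was at 12.2 and 21.5 CPM in the sham libraries, 60.2 and 68.1 after mild, 95.9 and 120.4 after moderate and 74.9 and 73.8 after severe injury. Plec (ENSRNOG00000023781), the cytoskeletal linker plectin, was at 14.7 and 39.1 CPM in the sham libraries, 106 and 130.0 after mild, 146 and 169 after moderate and 91.2 and 136 after severe injury. Neither gene's groups overlapped (log2 fold change 2.28 ± 0.32 (SE), adjusted p = 0.00468 for Flna and log2 fold change 2.28 ± 0.36 (SE), adjusted p = 0.00873 for Plec), and Flna passed without sham library 1 too (log2 fold change 1.96, adjusted p = 0.039), while Plec did not (log2 fold change 1.79, adjusted p = 0.058).

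S100a11 (ENSRNOG00000010105), a calcium-binding protein, was at 31.8 and 56.6 CPM in the sham libraries, 128 and 143 after mild, 143 and 233 after moderate and 288 and 244 after severe injury. All injured levels were above sham, and the severe levels were highest (log2 fold change 2.13 ± 0.31 (SE), adjusted p = 0.00572), also without sham library 1 (log2 fold change 1.79, adjusted p = 0.0382). In the 622 cells with Tyrobp and Mag+Mog at 0, S100a11 did not pass (log2 fold change 1.39, adjusted p = 0.0994). It was not alone, since 3 of the 12 named rises (Spp1, Plec and Btg2) and 6 of the 11 named falls passed in these cells. Tyrobp-rich cells held S100a11 at 3059 and 120 CPM in the sham libraries and at 608 to 1623 after injury. The part of their free RNA was not tested. Anxa5, a calcium-dependent membrane-binding protein, was at 4.89 and 33.2 CPM in the sham libraries, 101 and 96.2 after mild, 88.2 and 134 after moderate and 101 and 147 after severe injury (log2 fold change 2.52 ± 0.46 (SE), adjusted p = 0.0155). Lgals1, the lectin galectin-1, was at 228 and 906 CPM in the sham libraries, 1346 and 1862 after mild, 2636 and 1895 after moderate and 2678 and 2986 after severe injury (log2 fold change 1.99 ± 0.45 (SE), adjusted p = 0.0343). Both had their lowest level in sham library 1 and neither passed without it. Vim, the intermediate filament vimentin, went from 294 and 3079.8 CPM in sham to between 6938 and 11719 in the injured libraries, and did not pass for all injured groups together (log2 fold change 2.52 ± 0.67 (SE), adjusted p = 0.0522).

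**Figure D3:**
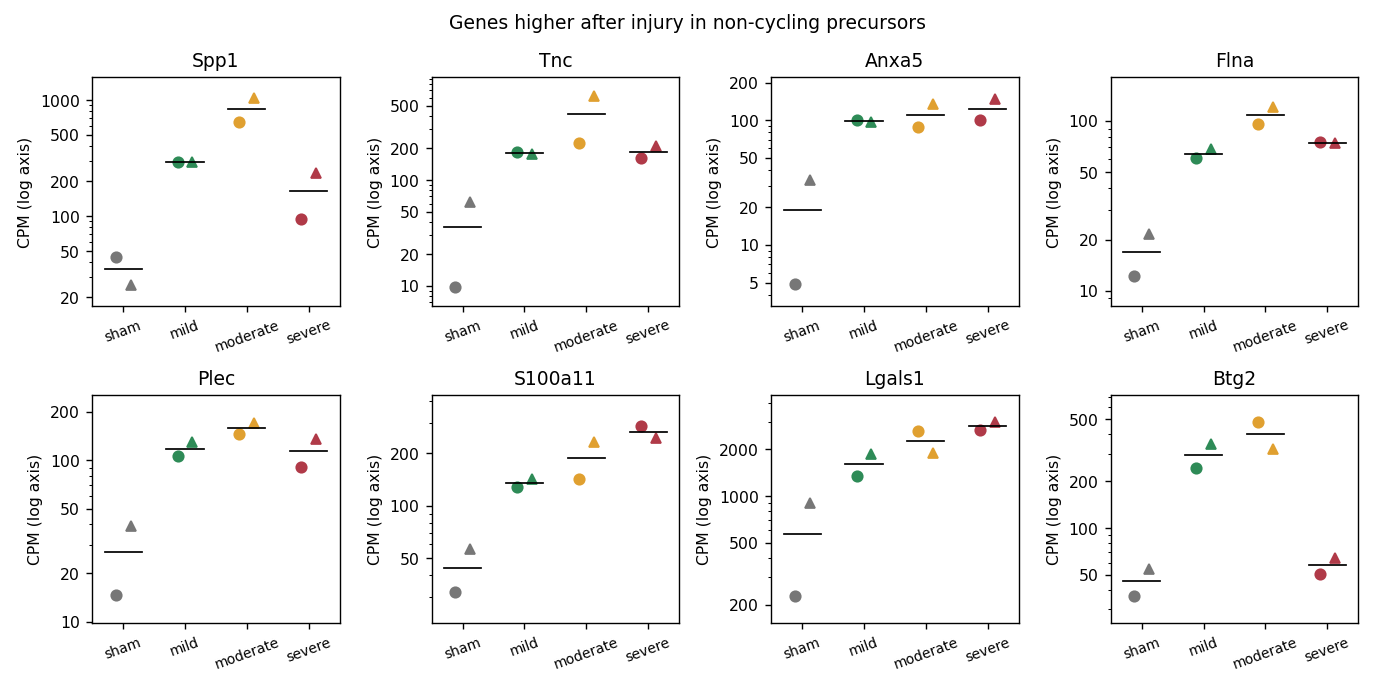
Levels of 8 genes that were higher after injury in the selected cells, in CPM on a log axis, by group, with circles for library 1, triangles for library 2 and black lines for group means. All injured libraries lie above both sham libraries, except that Btg2 in severe library 1 (50.5 CPM) lies between them.

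Sst, the neuropeptide somatostatin, was at 7.34 and 5.86 CPM in the sham libraries, 34.5 and 16.9 after mild, 138 and 75.4 after moderate and 74.9 and 69.9 after severe injury. It rose in the test of all injured groups (log2 fold change 3.19 ± 0.58 (SE), adjusted p = 0.0155) and after moderate and severe injury, and was at or below 2.24 CPM in Tyrobp-rich cells. Without sham library 1 it had log2 fold change 3.33, adjusted p = 0.0837. Spc24, a kinetochore subunit, and Birc5, the mitotic protein survivin, rose as well (log2 fold change 2.70 ± 0.43 (SE), adjusted p = 0.00939 and log2 fold change 2.15 ± 0.49 (SE), adjusted p = 0.0346). Neither passed without sham library 1 (adjusted p = 0.0637 for Spc24 and 0.143 for Birc5). Birc5 was at 2.45 and 33.2 CPM in the sham libraries, 75.6 and 68.7 after mild, 85.0 and 62.4 after moderate and 99.4 and 103 after severe injury. Both are genes of dividing cells, and the limit on Mki67 and Top2a keeps cells with low signals of them. Of 27 tested cell cycle genes, 2 rose (1.33% of all genes rose) and 25 did not pass after injury, with a median log2 fold change of 0.95 beside -0.05 over all genes. The other rise was Cdkn1a, an inhibitor of division. Of the 12 largest rises, 3 passed without sham library 1.

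The same injury direction was looked for in other cells of these libraries. Of the 432 genes, 110 (25.5%) moved the same way without overlap of the libraries in Tyrobp-rich cells, against 14.6% of all genes tested, and 93 (21.5%) did so in mature oligodendrocytes, against 9.41%. Gria4 was at no more than 0.361 CPM in Tyrobp-rich cells and 4.35 in mature cells. In cycling precursors it was at 91.5 and 78.5 CPM in the sham libraries, 24.8 and 38.9 after mild, 29.3 and 29.7 after moderate and 21.9 and 20.3 after severe injury, with both sham libraries again above all injured ones, although sham library 1 held only 9 cycling cells. Of the other named falls, Ampd3, Luzp2, Sumo4 and Cav2 had both sham libraries above all injured ones in cycling precursors, and Nrcam, Gria2, Clu, Hmgcs1 and Otos overlapped there. Nrcam in cycling precursors was at 193 and 39.3 CPM in the sham libraries and between 40.9 and 76.8 in the injured libraries, so sham library 2 was the lowest. Gpm6a in cycling precursors was at 62.6 and 96.4 CPM in the sham libraries, 31.5 and 25.6 after mild, 39.1 and 28.8 after moderate and 14.3 and 17.2 after severe injury, with both sham libraries above all injured ones there too.

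Immediate early genes are those that cells switch on within minutes of a stimulus. Of 18 tested, 4 rose after mild (0.204% of all genes rose), 8 after moderate (1.17%) and 0 after severe injury (3.65%). In the severe test 4 of the 18 were higher and 1 lower at an unadjusted p under 0.05 by edgeR. Over all genes 27.9% passed that limit in either direction. DESeq2 called 2 higher and 1 lower, where it called 463 of all 9801 genes higher and 395 lower. The medians were 0.93, 1.69 and 0.01 on the log2 scale, beside -0.05, 0.00 and -0.09 over all genes. The 3 comparisons share the sham libraries. Tested directly, 5 of 18 were lower after severe than after mild injury, where 2.06% of all genes were lower, with a median of -1.15. That comparison does not rest on the sham level, and without severe library 2 the count was 3 of 20 (42 of 10180 over all genes), while without mild library 2 it was 1 of 20 (37 of 10173). Microglia and macrophage markers in the selected cells moved with these genes. Their sum, led by C1qb, was 108 and 146 CPM in the sham libraries and 195 and 379 after mild injury. It was 336 and 241 after moderate and 13.0 and 68.1 after severe injury. Of 6 tested, 5 were lower after severe than after mild injury (median -2.12). The selection limited Tyrobp to 2 raw UMIs per cell. Median depth was 15500 and 20328 UMIs after severe and 9871 and 7597 after mild injury, so the limit allowed less Tyrobp per UMI in severe cells. The part of this limit in the markers' fall was not tested. In the 622 cells with Tyrobp and Mag+Mog at 0, 5 of 17 immediate early genes were lower after severe than mild injury (median -0.85), where 152 of all 7137 genes tested were lower. Against sham, 1 of the 17 rose after mild injury, where 1 of 7137 rose, and 3 after moderate injury, where 9 did. Without mild library 2 edgeR called 0 of 20 higher after mild injury (9 at an unadjusted p under 0.05), and without moderate library 2 it called 2 of 19 after moderate injury.

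The letters TGACGTCA, the cyclic AMP response element through which CREB-family factors act, were searched on both strands from 250 bases before to 50 after the gene start in RefSeq's promoters of build GRCr8. They were found in 4 of the 15 immediate early genes with an entry (26.7%: Btg2, Dusp1, Ier2 and Jund), against 549 of 27457 genes (2.0%). Of 21 precursor identity genes with an entry only Vgf held them. TGANTCA (N being any base), a broad form of the AP-1 element, was in 0 of the 15, against 8.04% of all genes. It was in 1 of the 21 precursor identity genes (Pdgfra). Of 23 synaptic and channel genes with an entry, 4 held it (17.4%: Cntn1, Dlgap1, Kcnj16 and Scn3a) and 0 held TGACGTCA. The letters are a description and not a site of binding. Windows of 30 bases around the element, in capitals, are shown for 3 immediate early genes that rose and for the naming marker Vgf, at chr13:48087873-48087902 (minus strand), chr19:40399296-40399325 (plus), chr10:17184718-17184747 (plus) and chr12:25277092-25277121 (minus) in this order.
Btg2: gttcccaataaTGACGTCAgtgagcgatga
Ier2: tggcgtttcagTGACGTCActcttactcta
Dusp1: ggcagggcgggTGACGTCAccacccggtca
Vgf: tgaatgaacatTGACGTCAatggggcgggg

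Fosb (ENSRNOG00000046667), a subunit of the AP-1 transcription factor, was at 100.3 and 146 CPM in the sham libraries, 810.0 and 931 after mild, 608 and 453 after moderate and 76.6 and 70.8 after severe injury. The mild and moderate libraries were all above the sham libraries, and the severe libraries were below them. It rose after mild (log2 fold change 2.77 ± 0.31 (SE), adjusted p = 0.00441) and moderate injury (log2 fold change 2.07 ± 0.30 (SE), adjusted p = 0.0132), and was lower after severe than after mild injury (log2 fold change -3.25 ± 0.31 (SE), adjusted p = 0.000156). Fos, of the same family, was at 1608 and 867 CPM in the sham libraries, 4197 and 4917 after mild, 3059 and 3032 after moderate and 953 and 855 after severe injury. It rose after mild injury (log2 fold change 1.85 ± 0.32 (SE), adjusted p = 0.0495) and was lower after severe than mild injury (log2 fold change -2.02 ± 0.32 (SE), adjusted p = 0.00495).

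Btg2 (ENSRNOG00000003300), an antiproliferative gene whose promoter holds the element, was at 36.7 and 54.7 CPM in the sham libraries, 244 and 346 after mild, 479 and 323 after moderate and 50.5 and 64.5 after severe injury. It rose after mild (log2 fold change 2.63 ± 0.36 (SE), adjusted p = 0.0193) and moderate injury (log2 fold change 3.09 ± 0.36 (SE), adjusted p = 0.00497), while the severe libraries lay near the sham libraries. Ier2, a nuclear early response protein, was at 80.7 and 242 CPM in the sham libraries, 802 and 742 after mild, 430.5 and 354 after moderate and 138 and 168 after severe injury, and rose after mild injury (log2 fold change 2.19 ± 0.41 (SE), adjusted p = 0.0495). Dusp1, a phosphatase that turns off MAP kinases, was at 58.7 and 148 CPM in the sham libraries, 164 and 210.1 after mild, 343 and 466 after moderate and 129 and 148 after severe injury, and rose after moderate injury (log2 fold change 1.89 ± 0.37 (SE), adjusted p = 0.0237). Egr1, a zinc finger transcription factor, was at 284 and 311 CPM in the sham libraries, 547 and 647 after mild, 922 and 898 after moderate and 156 and 104 after severe injury, and its severe libraries lay lowest (log2 fold change -1.91 ± 0.28 (SE), adjusted p = 0.00253 for severe against mild).

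Atf3 (ENSRNOG00000003745), a stress-induced transcription factor of injured cells, was at 22.0 and 244 CPM in the sham libraries, 679 and 575 after mild, 1098 and 1483 after moderate and 264 and 484 after severe injury. The moderate libraries were highest (log2 fold change 3.19 ± 0.67 (SE), adjusted p = 0.0299), and sham library 2 lay close to severe library 1. In Tyrobp-rich cells Atf3 was at 67.2 and 399 CPM in the sham libraries and 837 and 647 after mild injury. The moderate libraries were highest there too, at 1686 and 2018 CPM, and the severe libraries held 245 and 377. Jun was at 776 and 719 CPM in the sham libraries, 1811 and 1919 after mild, 2316 and 3878 after moderate and 982 and 1312 after severe injury, and rose after moderate injury (log2 fold change 2.0 ± 0.31 (SE), adjusted p = 0.0152). Klf4 and Klf6, zinc finger factors, also rose after moderate injury, with log2 fold changes of 2.32 and 2.21.

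Other cells of the same libraries showed part of this pattern. Fosb in mature oligodendrocytes was at 62.3 and 124 CPM in the sham libraries, 307 and 454 after mild, 133 and 144 after moderate and 101 and 46.2 after severe injury. In Tyrobp-rich cells it was at 126 and 286 CPM in the sham libraries, 359 and 373 after mild, 534 and 461 after moderate and 137 and 156 after severe injury. The mild libraries were highest in mature cells and the moderate libraries in Tyrobp-rich cells, and the severe libraries were below the mild ones in both. Btg2 was at 286 and 109.5 CPM in mature cells of the severe libraries, where it was 99.7 and 151 after mild injury, with overlap. In Tyrobp-rich cells Btg2 was at 502 and 425 CPM after mild and 318 and 342 after severe injury, so both severe libraries were lower there. Sham library 2 and severe library 1 held 36 and 70 mature cells. How dissociation of the tissue bears on these genes was not tested.

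**Figure D4:**
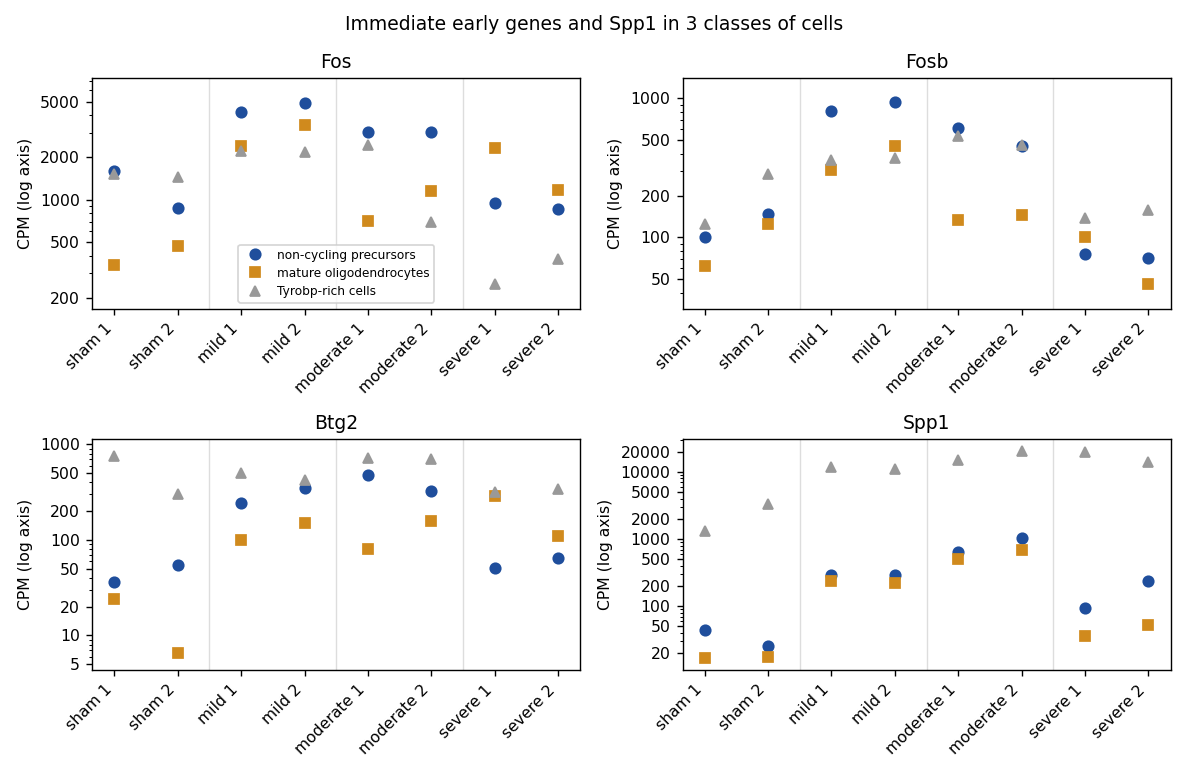
Fos, Fosb, Btg2 and Spp1 by library, in CPM on a log axis, in the selected cells (circles), mature oligodendrocytes (squares) and Tyrobp-rich cells (triangles). In the selected cells the mild and moderate libraries lie above the sham libraries for all 4 genes, and Fos, Fosb and Btg2 return near or below sham in the severe libraries.

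Against sham, 56 genes (0.571%) differed after mild, 271 (2.77%) after moderate and 759 (7.74%) after severe injury. Many of these calls were lost when a library was left out. After mild injury this held also for either moderate library and for severe library 2. Those libraries are outside that comparison but are part of the same fit. A loss therefore does not show that the library left out carried the calls. With library sizes only, the split was 4 higher and 4 lower after mild and 173 and 749 after severe injury. Of the called genes, 38 (67.9%) after mild, 114 (42.1%) after moderate and 398 (52.4%) after severe injury moved the same way without overlap in Tyrobp-rich cells, against 43.6%, 34.7% and 35.3% of all genes tested. In mature oligodendrocytes 45 (80.4%), 157 (57.9%) and 328 (43.2%) did so, against 44.0%, 38.4% and 29.8%. After mild injury 20 rose and 36 fell. Among the named falls was Vegfa, the endothelial growth factor, at 154 and 158 CPM in the sham libraries, 19.8 and 27.5 after mild, 68.2 and 114 after moderate and 39.1 and 33.0 after severe injury. The mild libraries were the lowest of the 8 (log2 fold change -2.72 ± 0.31 (SE), adjusted p = 0.00441), also without sham library 1. Ifitm1, an interferon-induced membrane protein, was at 12.2 and 1.95 CPM in the sham libraries, 44.8 and 71.4 after mild, 63.6 and 51.9 after moderate and 9.77 and 20.7 after severe injury, and rose after mild (log2 fold change 3.12 ± 0.61 (SE), adjusted p = 0.0496) and moderate injury. Zfp207, a zinc finger protein of the spindle, was lower after mild injury (log2 fold change -2.09 ± 0.32 (SE), adjusted p = 0.0291), and Ppial4d, which has close paralogs and whose count is uncertain, was too.

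After moderate injury 115 genes rose and 156 fell. Adamts1 and Adamts4, secreted proteases that cleave proteoglycans, both rose, with Adamts1 at 19.6 and 39.1 CPM in the sham libraries, 38.2 and 49.0 after mild, 96.4 and 229.5 after moderate and 35.8 and 51.6 after severe injury (log2 fold change 2.38 ± 0.45 (SE), adjusted p = 0.0229) and Adamts4 at a log2 fold change of 2.07. Sox9, a glial transcription factor, was at 9.79 and 25.4 CPM in the sham libraries, 33.7 and 25.3 after mild, 70.5 and 98.2 after moderate and 37.5 and 21.0 after severe injury, and rose too (log2 fold change 2.16 ± 0.43 (SE), adjusted p = 0.0268). Gadd45a and Dnajb1, genes of DNA damage and heat shock responses, had log2 fold change 2.87 ± 0.47 (SE), adjusted p = 0.0166 and log2 fold change 2.28 ± 0.39 (SE), adjusted p = 0.0166. Adamts1, Adamts4, Sox9, Klf4 and Klf6 did not pass after moderate injury without sham library 1. The moderate libraries also held Col1a1, a collagen of fibroblasts, at 42.7 and 94.5 CPM against 2.45 and 3.91 in sham, and the 4 fibroblast markers summed to 65.9 and 126 CPM there, 26.9 and 3.91 in sham and 147 and 9.81 after mild injury. The part of fibroblast RNA in the moderate levels was not tested.

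After severe injury 358 genes rose and 401 fell. Without severe library 2, 17 genes passed, among them Cxcl1, while Npy, Cdkn1a, Mgp, Dll1 and Tnr did not pass. Cxcl1, a chemokine that attracts neutrophils, was at 2.45 and 0 CPM in the sham libraries, 9.54 and 16.6 after mild, 47.3 and 68.7 after moderate and 68.4 and 47.1 after severe injury. It was highest in the moderate and severe libraries, and was higher after severe than after mild injury (log2 fold change 2.31 ± 0.36 (SE), adjusted p = 0.00389). In Tyrobp-rich cells Cxcl1 was at 220.4 and 394 CPM in sham and 4389 and 6582 after severe injury, and the part of their free RNA was not tested. Npy, neuropeptide Y, was at 4.89 and 3.91 CPM in the sham libraries, 0 and 1.63 after mild, 1.36 and 6.05 after moderate and 96.1 and 54.6 after severe injury. It stood out in the severe libraries (log2 fold change 4.30 ± 0.73 (SE), adjusted p = 0.01), while Tyrobp-rich cells of those libraries held at most 0.267 CPM. Cycling precursors of the severe libraries held 32.3 and 83.6 CPM. Cdkn1a, an inhibitor of the cell cycle that p53 induces, was at 31.8 and 60.5 CPM in the sham libraries, 71.9 and 69.7 after mild, 137 and 147 after moderate and 181 and 156 after severe injury, with the sham libraries lowest (log2 fold change 2.10 ± 0.32 (SE), adjusted p = 0.00721).

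Among the falls after severe injury was Mgp, an inhibitor of calcification, at 5738 and 555 CPM in the sham libraries, 654 and 907 after mild, 378 and 474 after moderate and 130.3 and 12.9 after severe injury (log2 fold change -5.37 ± 1.07 (SE), adjusted p = 0.0179). Its highest level was in sham library 1, whose Tyrobp-rich cells held Mgp at 1029.8 CPM, and without that library it did not pass (log2 fold change -2.99, adjusted p = 0.0596). Dll1, a Notch ligand, fell by 3.25 on the log2 scale, and did not pass without sham library 1 (adjusted p = 0.118). Tnr, the matrix protein tenascin-R, was at 174 and 135 CPM in the sham libraries, 116 and 149 after mild, 84.1 and 123 after moderate and 30.9 and 29.7 after severe injury. The severe libraries lay far below the other 6, and Tnr was lower than in sham (log2 fold change -2.06 ± 0.30 (SE), adjusted p = 0.00611) and than after mild injury (log2 fold change -1.82 ± 0.28 (SE), adjusted p = 0.00396).

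Severe and mild injury were compared directly, without the sham libraries in the contrast. Of 9801 genes, 394 (4.02%) differed, 192 higher (1.96%) and 202 lower (2.06%) after severe injury, a split that was 114 and 558 with library sizes only. Without severe library 2, 147 genes passed (119 of the 394), and without mild library 2, 66 passed (60 of the 394), Fos not among them in either case. Many of the 394 moved in other cells of the same libraries. Of the 394, 334 (84.8%) moved the same way without overlap in Tyrobp-rich cells, against 43.9% of all genes tested, and 327 (83.0%) in mature oligodendrocytes, against 43.1%. The share over all genes differed by direction. In Tyrobp-rich cells it was 83.3% of the rises against 17.4% of all genes with that direction, and 86.1% of the falls against 69.0%. In mature oligodendrocytes it was 81.25% against 23.0% for rises and 84.7% against 62.2% for falls. The median log2 fold change over all genes was -0.35 with library sizes alone and -0.02 with TMM factors.

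Rps19 and Rps6, proteins of the small ribosomal subunit, were the clearest of these library-wide genes. Rps19 (ENSRNOG00000037897) was at 105 and 221 CPM in the sham libraries, 46.2 and 52.9 after mild, 99.6 and 80.8 after moderate and 2069 and 1533 after severe injury in the selected cells (log2 fold change 5.48 ± 0.40 (SE), adjusted p = 1.81e-05). Tyrobp-rich cells held it at 79.0 and 180.2 CPM in the sham libraries, 38.6 and 41.5 after mild, 75.8 and 59.7 after moderate and 1278 and 1082 after severe injury, in the same order. Rps6 was at 63.6 and 74.2 CPM in the sham libraries, 24.9 and 15.0 after mild, 48.2 and 43.1 after moderate and 502 and 546 after severe injury (log2 fold change 5.09 ± 0.33 (SE), adjusted p = 1.37e-05). Sumo4 (ENSRNOG00000032840) went the other way, at 237 and 527 CPM in the sham libraries, 149 and 89.1 after mild, 117 and 91.7 after moderate and 11.4 and 7.20 after severe injury (log2 fold change -3.51 ± 0.49 (SE), adjusted p = 0.00229), and at 86.6 and 321 CPM in the sham libraries, 93.4 and 60.7 after mild, 64.2 and 60.2 after moderate and 7.35 and 3.85 after severe injury in Tyrobp-rich cells. The severe libraries stood apart in every class of cell looked at. Rps19, Rps6, Sumo4, Ppial4d and Ybx1-ps3 have near-identical copies in the genome, so their counts are uncertain. The library and the severe group cannot be told apart for them.

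Cdkn1c (ENSRNOG00000059500), the cell cycle inhibitor p57 that holds precursors out of division, was at 335 and 326 CPM in the sham libraries, 419 and 476 after mild, 283 and 294 after moderate and 45.6 and 96.6 after severe injury. Both severe libraries were below the other 6 (log2 fold change -2.26 ± 0.32 (SE), adjusted p = 0.0024). In mature oligodendrocytes its severe levels were 29.4 and 189.7 CPM against 186 and 148 after mild injury, with overlap, and in Tyrobp-rich cells no library passed 8.18 CPM. Bmp4, a morphogen made by cells that leave the precursor state, was at 95.4 and 72.3 CPM in the sham libraries, 85.1 and 111 after mild, 42.3 and 16.3 after moderate and 11.4 and 14.1 after severe injury. The moderate and severe libraries were all below the sham and mild libraries (log2 fold change -2.56 ± 0.45 (SE), adjusted p = 0.00844 for severe against mild). Tcf7l2, a transcription factor of newly committed oligodendrocytes, was at 66.1 and 44.9 CPM in the sham libraries, 55.8 and 78.2 after mild, 63.2 and 75 after moderate and 21.2 and 18.6 after severe injury, with the severe libraries lowest (log2 fold change -1.48 ± 0.30 (SE), adjusted p = 0.0182). Matn4, a matrix adaptor protein of precursors, was at 68.5 and 43.0 CPM in the sham libraries, 42.6 and 36.8 after mild, 14.1 and 4.66 after moderate and 4.89 and 2.40 after severe injury, high in sham and mild and low in moderate and severe libraries (log2 fold change -3.42 ± 0.60 (SE), adjusted p = 0.00844). Of 19 tested genes of committed precursors and myelin, 3 were lower after severe than mild injury (median -0.89), where 2.06% of all genes were lower. Without severe library 2, Cdkn1c, Rps19 and Rps6 still passed, and Sumo4, Bmp4, Tcf7l2, Matn4 and Tnr did not. None of the 3 committed genes passed in edgeR without it, where 4 genes of the list were lower at an unadjusted p under 0.05.

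**Figure D5:**
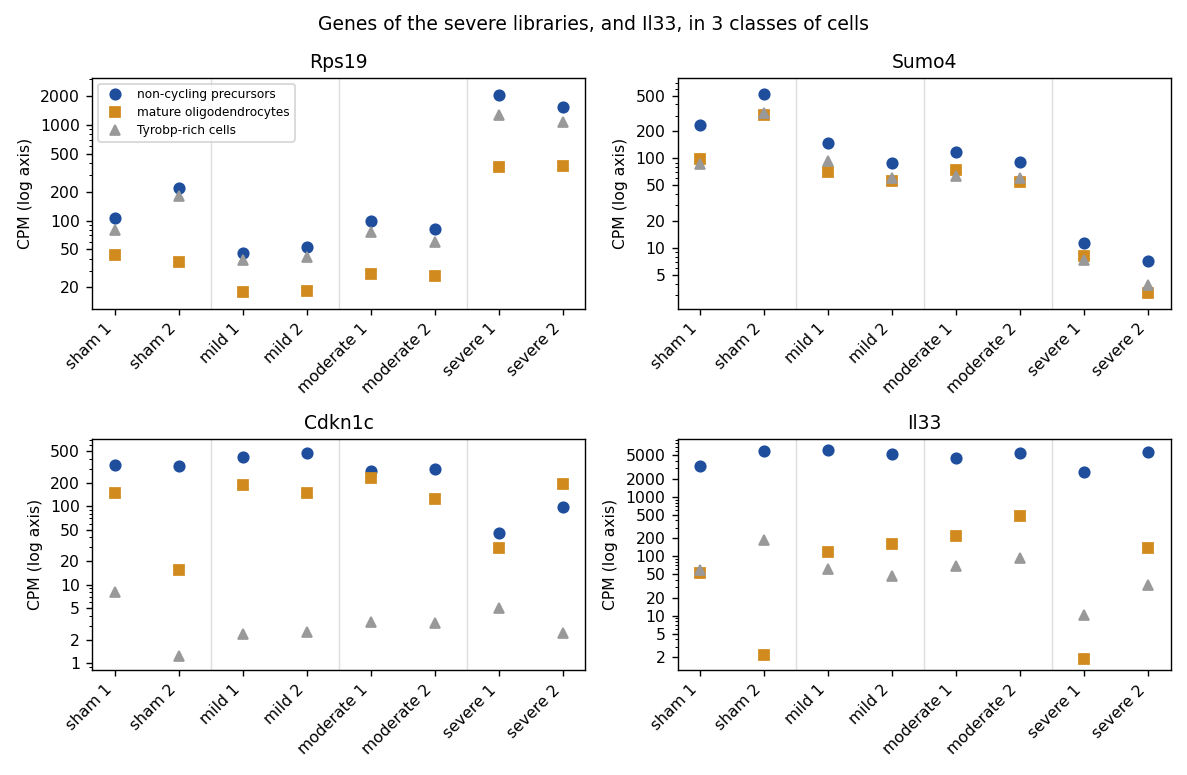
Rps19, Sumo4, Cdkn1c and Il33 by library, in CPM on a log axis, in the selected cells (circles), mature oligodendrocytes (squares) and Tyrobp-rich cells (triangles). Rps19 rises and Sumo4 falls in the severe libraries in all 3 classes, Cdkn1c is low in the selected cells of the severe libraries, and Il33 shows no order by group in the selected cells.

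The other lists are set against the 4.41% of all genes that passed in the test of all injured groups. Of 20 tested genes of sterol synthesis, 2 fell, Hmgcs1 and the regulator Srebf2 (median -0.77). Of 33 genes of interferon response and antigen presentation, 1 rose (Ifitm1) and 4 fell (Isg15, Mx2, Usp18 and RT1-S3). Isg15, a ubiquitin-like interferon product, was at 46.5 and 33.2 CPM in the sham libraries, 2.20 and 7.63 after mild, 17.3 and 1.63 after moderate and 3.26 and 2.10 after severe injury. Both sham libraries lay above all injured ones (log2 fold change -2.94 ± 0.73 (SE), adjusted p = 0.0429). Of 27 cytokine and chemokine genes, Cxcl1 rose and Cd9, a tetraspanin, fell (log2 fold change -1.24 ± 0.26 (SE), adjusted p = 0.0242). Of 33 stress genes, 2 rose, Cdkn1a and Dnajb1. The growth factor and morphogen list had 3 falls among 45 genes, Pdgfra, Vegfa and Dll1. Vegfa and Cxcl1 passed without sham library 1 too. Of 12 Wnt targets, 1 fell (Rnf43, at 12.2 and 9.76 CPM in sham and at most 2.72 after injury). The matrix list had 2 rises among 34 genes, Tnc and Lgals1, and 7 falls, Matn4, Cspg5, Tnr, Spon1, Mmp16, Timp4 and Sparcl1, all lost without sham library 1.

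Of 22 growth-associated and neuropeptide genes, edgeR called 1, Nptx2, which fell after injury, with a median of 0.55 beside -0.05 over all genes. At an unadjusted p under 0.05, 8 of them were higher, where 23.8% of all genes passed in either direction. Stmn1, a microtubule regulator, was at 144 and 1060.5 CPM in the sham libraries, 1201 and 1194 after mild, 1378 and 1123 after moderate and 1635 and 1788 after severe injury. Sham library 1 stood far below sham library 2, which lay just below the lowest injured level (log2 fold change 1.23 ± 0.52 (SE), adjusted p = 0.176). Gap43, a growth cone protein, was at 604 and 426 CPM in the sham libraries, 1018 and 719.8 after mild, 1117 and 1112 after moderate and 482 and 648 after severe injury, with overlap (log2 fold change 0.74 ± 0.25 (SE), adjusted p = 0.102).

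Non-cycling and cycling precursors were set side by side as a description, because the limit on Mki67 and Top2a made the division. Within 7 libraries (sham library 1, with 9 cycling cells, was left out), 3655 of 9701 genes (37.7%) passed the edgeR test between them. Within all 8 libraries, 5779 of 9020 (64.1%) passed between non-cycling precursors and mature oligodendrocytes. Nothing is read from either count. Il33 was at 3881 and 6403 CPM in the sham libraries, 6829 and 5204 after mild, 3309 and 5333 after moderate and 4553 and 4327 after severe injury in cycling precursors, higher than in the non-cycling cells in 4 libraries and lower in 4. C1ql1 in cycling precursors was at 169 and 582 CPM in the sham libraries, 483 and 542 after mild, 206 and 236 after moderate and 217 and 236 after severe injury, lower than in non-cycling cells in all 8 libraries and again lowest in the moderate and severe libraries apart from sham library 1. Cdkn1c was at 24.1 and 50.0 CPM in the sham libraries, 112 and 79.2 after mild, 70 and 54.1 after moderate and 15.2 and 44.2 after severe injury in cycling precursors, also lower than in non-cycling cells in all 8 libraries. Pdgfra was at 193 and 146 CPM in the sham libraries, 92.9 and 124 after mild, 131 and 169 after moderate and 73.3 and 35.5 after severe injury in cycling precursors, with both sham libraries above 5 of the 6 injured libraries.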

How the data were processed

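The authors deposited, for each library, the raw UMI counts of 32623 genes in each cell, made with the Cell Ranger pipeline (version 5.0.1 per the file headers) on build Rnor_6.0 per the submitters' processing notes. No normalization had been applied. Libraries were grouped by their labelled degree of injury. Cells were filtered and selected by the limits on UMIs given above. No doublet caller was run, and the limits on Mag, Mog and Tyrobp remove pairs with those cells only in part. UMI counts were summed per library and tested with edgeR 4.0.16 (R 4.3.3; TMM factors, filterByExpr, quasi-likelihood test, all 4 groups in 1 fit) and adjusted over all genes tested. DESeq2 1.42.0 was an alternative, as were other limits, filters, scalings and leaving out each library. The share of non-cycling precursors among filtered cells was compared with an exact permutation test. The tests were checked on simulated data.

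Members and gene lists were chosen with earlier results of these data known. Named genes were list members and, for injured against sham, the 12 largest rises and falls (otherwise 5) among genes that passed, averaged 50 or more CPM after TMM scaling and had libraries that did not overlap. Thinning drew 2000 UMIs per cell without replacement. The comparisons of non-cycling precursors with cycling and with mature cells rest on the selection limits and are given as levels or counts only. Replicate libraries differed beyond sampling noise (chi-square per degree of freedom 3.96 to 14.9 over genes), so each counted as 1 sample. Some genes of the lists, and 1 of the 12 largest falls, are not reported here.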

Additional observations from a re-analysis of the deposited data

Results flagged for a closer look

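Of the 394 genes that differed between severe and mild injury by the direct edgeR test, 10 entries were named by size. The difference (severe minus mild, log2) was 5.48 for Rps19, 5.09 for Rps6, 3.78 for Ppial4d, -3.51 for Sumo4, -3.25 for Fosb, -2.56 for Bmp4, -2.38 for Nell2 and -2.26 for Cdkn1c. Rps19, Rps6, Ppial4d and Sumo4 differed the same way, without overlap, in cycling precursors, mature oligodendrocytes and Tyrobp-rich cells of the same libraries. Ppial4d was at 85.6 and 166 CPM in the sham libraries, 38.2 and 28.9 after mild, 53.2 and 56.6 after moderate and 371 and 358 after severe injury. Nell2, a secreted glycoprotein of neural cells, was at 247 and 52.7 CPM in the sham libraries, 99.0 and 149.8 after mild, 51.4 and 49.8 after moderate and 32.6 and 13.2 after severe injury, and did not pass without severe replicate 2 (log2 fold change -1.67, adjusted p = 0.327). Bmp4 and Sumo4 did not pass without that library either (adjusted p = 0.116 and 0.0904). Fosb, Cdkn1c, Rps19, Rps6 and Ppial4d passed without it.

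Both entries of Hba-a2, a red blood cell gene, had differences of 11.14 and 9.47. They rested on severe library 2, where the entries reached 1623 and 715 CPM, against 8.14 and 1.63 in severe library 1 and under 1 CPM in the mild libraries, so the fitted sizes depend on the prior count. Without severe replicate 2 the adjusted p-values were 0.443 and 0.846.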

How the results depend on the processing

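The numbers of genes called moved with the settings. The gene results recomputed here had all passed in the main fit, and each setting used largely the same cells. Their kept directions therefore say little about how stable the directions are. Over 260 gene results and 4212 recomputed values, 2979 kept direction and call, 1227 kept direction and lost the call, and 6 reversed, all of S100a8 and S100a9 without sham replicate 1. Their log2 fold changes with each library left out ran, for S100a8, from -8.33 to 6.0 injured, -8.08 to 5.66 moderate and -12.46 to 5.05 severe, and for S100a9 from -9.40 to 5.40, -8.61 to 6.24 and -13.63 to 2.71, the high end without sham replicate 1. For injured against sham, 1112 genes passed without a filter on low counts, 24 with Tyrobp and Mag+Mog at 0 (622 cells) and 273 with Ptprz1 of at least 4 UMIs. For mild against sham the counts were 282 with DESeq2, 8 with library sizes only, 726 without the filter, 0 with only these groups in the fit (1597 at an unadjusted p under 0.05), 3 with the strict limits and 4 with Ptprz1 of at least 4. For moderate they were 939 without the filter, 1 with only these groups and 11 with the strict limits, and for severe 1393, 35 and 145. For severe against mild they were 808 without the filter, 853 with only these groups and 672 with library sizes only, which left 17.0% of calls higher, against 48.7%. For severe against sham, library sizes alone left 18.8% of calls higher, against 47.2%, and moved the median of all genes to -0.38. Against cycling precursors 1883 genes passed with the strict limits.

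Leaving out each library in turn gave 47 to 1098 genes for injured against sham, 1 to 728 for mild, 6 to 726 for moderate, 17 to 1707 for severe, 66 to 883 for severe against mild, 2993 to 3795 for non-cycling against cycling precursors (7 of the 8 libraries, since sham replicate 1 held 9 cycling cells, under the minimum of 10, and was not in that comparison) and 5118 to 5914 against mature oligodendrocytes. The lowest counts came without sham replicate 1 (47), severe replicate 2 (17 for severe, 54 for injured), mild replicate 2 and moderate replicate 2. Replicate numbers did not pair the libraries (correlations of deviations -0.13 to 0.02), and the fit with the replicate block called 272 genes for injured, 10 for mild, 225 for moderate, 480 for severe and 272 for severe against mild. With 41 to 439 cells and 2 libraries a group, depth limits the low genes: 9801 of 32623 genes could be tested.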
